A study of Mus musculus with 8 samples.

Results

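Mouse genes that were recently renamed with a number from Zfp900 to Zfp999 were followed through the depletion of subunits of the ATAC coactivator complex in embryonic stem cells. Members were all protein-coding genes of the GRCm38 annotation whose symbol, looked up from the counted Ensembl identifier, is Zfp followed by a number of that range. There were 63 of them among 55401 counted genes, spread over 12 chromosomes, and 55 passed the filter on low counts that left 17532 genes for testing. The set was chosen by a measured value, the much lower level of Zfp986 in the auxin libraries, so the Zfp986 values against the control are given as a description with no test.

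RNA-seq was performed on mouse ESCs grown in serum medium with LIF and the inhibitors CHIR99021 and PD0325901 (2i), under G418 to keep the Tir1 transgene. Zzz3_auxin (3 libraries) and Yeats2_auxin (3 libraries) are Zzz3-AID and Yeats2-AID lines, in which a degron tag on the named ATAC subunit leads to its destruction when auxin is added, and they received 500 µM auxin for 24 h. The labels of Control (2 libraries) give neither the line nor a vehicle, so effects of the tag, the clone and auxin itself cannot be told apart from the depletion. DMSO-treated cells of the AID lines appear in the supplement of the study, but the labels do not tie the Control libraries to them. Gene-assigned reads ranged from 14315120 to 27884704 a library. All 11 naive ESC markers (among them Pou5f1, Nanog and Esrrb) were detected and none was called against the control, whereas the 7 feeder fibroblast markers summed to at most 2.23 CPM (counts per 1000000 assigned reads) in any library. The two-cell-like markers, which include Zscan4c and Zfp352, summed to between 1.45 and 2.27 CPM in the control, 3.41 and 14.5 CPM in Zzz3_auxin and 2.02 and 3.11 CPM in Yeats2_auxin. The primed epiblast markers (4 genes) summed to between 135 and 157 CPM in the control, 154 and 179 CPM in Zzz3_auxin and 199 and 212 CPM in Yeats2_auxin, and the neuroectoderm markers (3 genes) to between 40.7 and 42.9, 48.4 and 71.6, and 44.8 and 50.2 CPM. No gene of these lists was called against the control, and their part in the results was not tested. As a check of the labels, Zzz3 mRNA was 186 and 182 CPM in the control and 77.5, 96.9 and 112 CPM in Zzz3_auxin (log2 FC -0.95, SE 0.14, edgeR adjusted P = 0.0187). Yeats2 mRNA was not called in Yeats2_auxin (log2 FC -0.32, SE 0.26, edgeR adjusted P = 0.605), and a degron acts on the protein.

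Most of these genes encode KRAB zinc finger proteins. Such a protein reads DNA with a row of C2H2 zinc fingers and uses its KRAB domain to bring in TRIM28 (KAP1) and the methyltransferase SETDB1, which places H3K9me3, typically over retrotransposons. The genes lie in tandem clusters that arose by repeated duplication, and the mouse clusters on chromosomes 2 and 4 hold many near-identical copies. In ESCs this system is known for keeping endogenous retroviruses silent.

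A coding exon of 127 bases, the length typical of the exon for the KRAB A box, was annotated in 62 of the 63 members. The exception was Zfp957, which also had no match to the C2H2 finger pattern. The exon was found by its length, and a residue pattern of the KRAB A box was matched in the translation of 58 members, all but Zfp945, Zfp950, Zfp956, Zfp957 and Zfp972. The translated members had between 0 and 21 matches to the C2H2 finger pattern (median 11), and 3 of them had none. The 62 exons fell into 52 distinct sequences, and 16 members had an exon equal to that of another member. In all, 43 members lay in chromosome clusters, defined as at least 3 members less than 1 Mb apart. The clusters were on chromosome 4 (16 members over 2.34 Mb), chromosome 2 (10 over 2.71 Mb), chromosome 17 (10 over 1.3 Mb), chromosome 7 (4 over 0.612 Mb) and chromosome 8 (3 over 0.541 Mb).

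The 127-base exon shows how close most of the chromosome 4 genes are to each other. In it, 15 of the 16, with Zfp986 itself counted, were within 14 differences of Zfp986, and Zfp933 differed at 57. The exons below are coding, on GRCm38, and each is written 5′ to 3′ on the strand of its gene, with capitals for bases that differ from Zfp986. Zfp987 and Zfp988 had the exon of Zfp986 with no difference. Zfp990 differed at 5 of 127 positions and Zfp981 at 14, while Zfp944 of the chromosome 17 cluster differed at 13. Zfp936 (chromosome 7) and Zfp968 (chromosome 2) differed at 52 and 54 positions. The exon of Zfp968 was also that of Zfp966, Zfp967, Zfp969 and Zfp970.
Zfp986, chr4:145896644-145896770, plus strand: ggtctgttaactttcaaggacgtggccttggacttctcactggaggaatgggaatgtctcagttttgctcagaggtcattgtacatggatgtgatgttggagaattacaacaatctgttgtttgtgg
Zfp990, chr4:145534816-145534942, plus strand: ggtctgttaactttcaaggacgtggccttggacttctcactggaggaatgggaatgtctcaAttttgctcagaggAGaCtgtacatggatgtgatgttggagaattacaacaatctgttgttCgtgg
Zfp981, chr4:146535421-146535547, plus strand: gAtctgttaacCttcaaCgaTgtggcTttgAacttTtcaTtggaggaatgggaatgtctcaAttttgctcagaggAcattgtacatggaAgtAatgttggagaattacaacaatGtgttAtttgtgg
Zfp944, chr17:22340967-22341093, minus strand: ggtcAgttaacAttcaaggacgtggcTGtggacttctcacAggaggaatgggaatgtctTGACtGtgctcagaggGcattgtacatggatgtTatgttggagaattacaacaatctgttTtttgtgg
Zfp936, chr7:43187170-43187296, plus strand: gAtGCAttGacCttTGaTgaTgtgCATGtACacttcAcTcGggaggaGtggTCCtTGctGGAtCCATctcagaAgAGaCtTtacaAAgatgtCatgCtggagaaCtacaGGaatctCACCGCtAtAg
Zfp968, chr2:175380447-175380573, plus strand: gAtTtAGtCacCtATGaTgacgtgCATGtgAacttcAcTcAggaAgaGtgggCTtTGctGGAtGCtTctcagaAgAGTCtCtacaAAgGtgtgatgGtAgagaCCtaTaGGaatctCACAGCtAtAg

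Likeness of this kind bears on every value, because only reads that aligned to a single place in the genome were counted. Of the exonic windows of 100 bases in a member, a median of 5.4% occurred in a transcript of another gene, with a range from 0 to 100%. Of the 8 members that were not tested, 7 shared between 73.2% and 100% of their windows, and 6 of those were in the chromosome 2 cluster. Zfp935, Zfp966, Zfp968 and Zfp969 had 0 reads in all 8 libraries, which allows a level of up to 0.0158 CPM over the 189887091 assigned reads, for counting error only and only for reads that could be placed. Zfp965 and Zfp967 had 0 to 3 reads per library and Zfp973 had 0 to 5. The exons of Zfp935 were covered in full by other genes on the same strand, where a read is ambiguous. Zfp957 was the only untested member with no shared window, and its 0 to 2 reads per library came at a place where reads could be assigned. A low value of a near-identical member is therefore uncertain, and a read can also stand for a copy that the annotation does not separate.

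**Figure D1:**
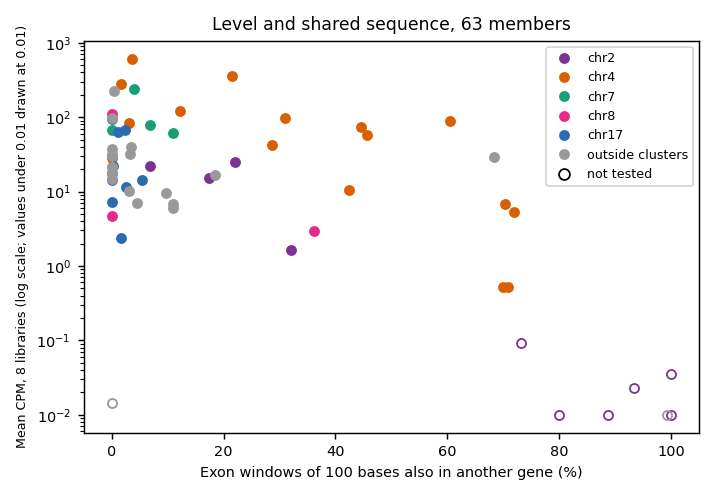
Share of 100-base exon windows that also occur in another gene (x axis, percent) and mean level over 8 libraries (y axis, CPM, log scale) of the 63 members, coloured by chromosome cluster. Open points are the 8 untested members, 7 of which sit at 73.2% or more, and Zfp986 and Zfp987 sit near 70% at about 0.52 CPM.

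Levels of the tested members, per kb of exon, spanned about 3 orders of size and 4 of the 5 highest were in the chromosome 4 cluster. Zfp990 was highest, with a mean of 176 CPM per kb and 159 to 197 over the 8 libraries, a range that overlapped with no other member. Zfp985 (96.7 CPM per kb), Zfp979 (88.4), Zfp936 (73.9) and Zfp978 (69.4) followed, and each of these ranges overlapped with that of the next gene. The median of the tested members was 6.89 CPM per kb. Zfp974, Zfp964 and Zfp983 had 0.811, 0.612 and 0.543 CPM per kb, and Zfp986 and Zfp987 were lowest with 0.365 and 0.171. Of the 54 pairs of neighbours in this order, 2 had ranges that did not overlap, namely Zfp990 with Zfp985 and Zfp984 with Zfp988. Within the smaller clusters, the highest levels per kb were those of Zfp936 on chromosome 7, Zfp944 on chromosome 17 (24.4 CPM per kb), Zfp930 on chromosome 8 (21.5) and Zfp971 on chromosome 2 (11.8).

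**Figure D2:**
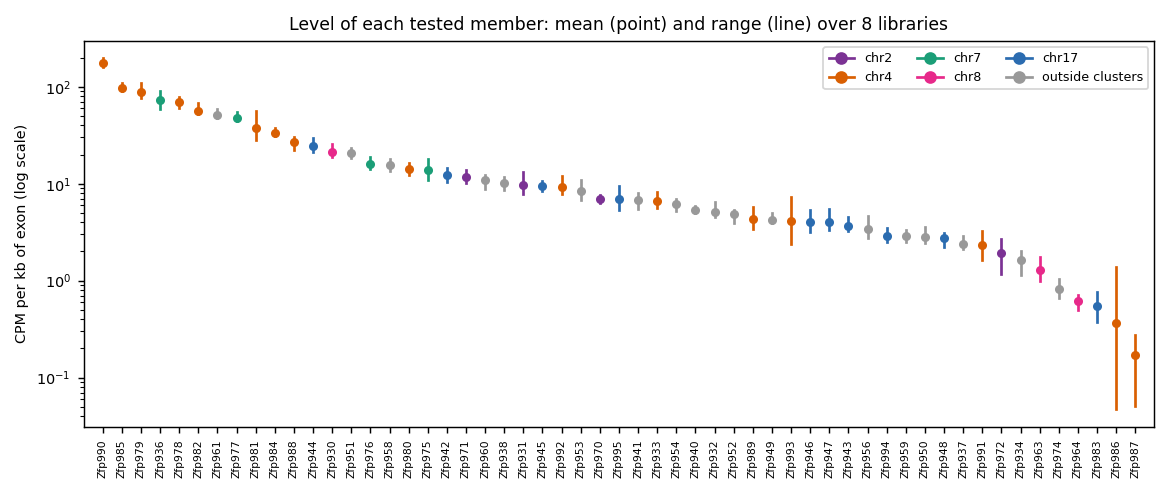
Level of each of the 55 tested members, as CPM per kb of exon (y axis, log scale), ordered from highest to lowest and coloured by chromosome cluster. Points are means over 8 libraries and lines run from the lowest to the highest library, from Zfp990 at 176 to Zfp987 at 0.171.

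Zfp986 (ENSMUSG00000078500, chr4:145868794-145899975, plus strand) had 40 and 27 reads in the control libraries, 2, 4 and 1 reads in Zzz3_auxin and 6, 7 and 5 reads in Yeats2_auxin. In CPM these were 1.97 and 1.22 in the control, 0.0767, 0.147 and 0.0669 in Zzz3_auxin and 0.232, 0.253 and 0.198 in Yeats2_auxin. Every auxin library was below both controls, and every Yeats2_auxin library was above every Zzz3_auxin library. The log2 FC was -3.90 (SE 0.49) in Zzz3_auxin and -2.78 (SE 0.42) in Yeats2_auxin. Reads pooled per group gave a level 15.1-fold lower in Zzz3_auxin (95% exact interval 6.92 to 38.9) and 6.84-fold lower in Yeats2_auxin (4.02 to 12.2). The intervals cover counting error only and are no test, because the gene was chosen by this same difference. The value rests on 67 control reads, 7 Zzz3_auxin reads and 18 Yeats2_auxin reads. Zfp986 passed the filter on low counts through the control libraries only. In bulk RNA, fewer cells that express a gene and less RNA per cell cannot be told apart.

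The gene model of Zfp986 is short and mostly shared. It holds 1427 exonic bases, its last coding exon (1047 bases, chr4:145898929-145899975) has no annotated stop codon, and 70.0% of its 100-base windows occurred in other genes, most often in Zfp988 (49.8%). Aligned without gaps over 1047 bases, that exon differed from Zfp987 at 20 positions, from Zfp989 at 36, from Zfp988 at 52 and from Zfp990 at 67. The 100 bases of that exon that differed most from Zfp988 and Zfp987 jointly are printed with capitals for differences from Zfp986. The stretch was picked by comparison with Zfp988 and Zfp987 only, so whether it also occurs in another gene is not shown. Zfp988 differed at 21 positions and Zfp987 at 13.
Zfp986, chr4:145899860-145899959: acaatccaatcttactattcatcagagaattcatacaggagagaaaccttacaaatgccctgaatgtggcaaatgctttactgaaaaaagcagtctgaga
Zfp988, chr4:147332199-147332298: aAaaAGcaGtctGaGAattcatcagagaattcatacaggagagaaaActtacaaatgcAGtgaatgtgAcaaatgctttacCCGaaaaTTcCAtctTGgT
Zfp987, chr4:146125088-146125187: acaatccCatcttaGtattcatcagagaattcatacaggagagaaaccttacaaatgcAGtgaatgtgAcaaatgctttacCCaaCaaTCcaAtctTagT

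The relatives of Zfp986 did not show a change of that size. Zfp988 was 85.3 and 74.7 CPM in the control, 62.6, 73.5 and 71.7 in Zzz3_auxin and 77.9, 73.3 and 80.5 in Yeats2_auxin, which put its log2 FC at -0.21 (SE 0.12) and -0.050 (SE 0.12). Zzz3_auxin libraries were all below the control for this gene and Yeats2_auxin libraries overlapped with it. In CPM, the mean difference of Zfp986, from 1.6 to 0.0968 and 0.228, was smaller than the spread of Zfp988 between the controls. These genes differ widely in level, so this comparison does not show where the Zfp986 reads came from, which was not tested. Zfp989 was 13.7 and 9.62 CPM in the control, 8.25 to 13.9 CPM in Zzz3_auxin and 9.41 to 9.79 CPM in Yeats2_auxin, with overlapping groups. Zfp987 was 0.74 and 0.635 CPM in the control, 0.23, 0.733 and 0.402 in Zzz3_auxin and 0.155, 0.832 and 0.435 in Yeats2_auxin. Its log2 FC of -0.56 (SE 0.64) and -0.52 (SE 0.62) had 95% intervals from -1.81 to 0.68 and from -1.73 to 0.70, so a 2-fold lower level was within the error in both comparisons. Zfp990, the most abundant member, was 688 and 626 CPM in the control, 629, 572 and 590 in Zzz3_auxin and 596, 556 and 661 in Yeats2_auxin (log2 FC -0.14 and -0.12, SE 0.12 in each). None of these 4 relatives was called (edgeR adjusted P between 0.351 and 0.881 over both comparisons).

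**Figure D3:**
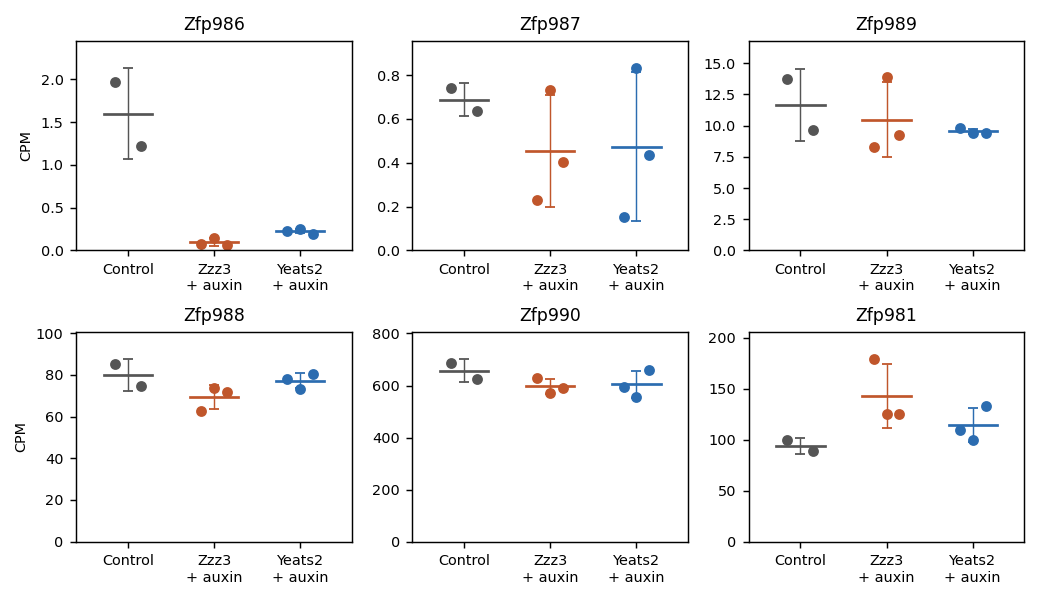
CPM (y axis, from 0, a scale for each gene) in Control, Zzz3_auxin and Yeats2_auxin for Zfp986, its relatives Zfp987, Zfp989, Zfp988 and Zfp990, and Zfp981. Points are libraries, bars are means and whiskers are SD (n = 2, 3 and 3), and Zfp986 goes from 1.6 CPM to 0.0968 and 0.228 CPM while Zfp988 and Zfp990 keep their level to within 0.21 on the log2 scale.

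Zzz3_auxin was compared with the control to see whether the rest of the set followed. Of 55 tested members, 1 passed an adjusted P of 0.05 in edgeR, and it was Zfp986, which chose the set. Over all tested genes 0.753% were called, so the count says nothing beyond that choice. Of the other 54, 0 were called by edgeR and 12 had an unadjusted P under 0.05, which 21.7% of all tested genes had. DESeq2 called 1 of the 54, Zfp981, and the share of all tested genes that DESeq2 called was not counted. The log2 FC was negative for 48 members and positive for 7, with a median of -0.20, where the median of all tested genes was 0.0098. All 3 Zzz3_auxin libraries lay below both controls for 31 members, 56.4%, against 18.9% of all tested genes, and above both for 2 members, 3.64%, against 16.8%. Without Zfp986 the log2 FC was negative for 47 of 54 (median -0.20), and 30 (55.6%) lay below and 2 (3.7%) above both controls. The median SE of a member was 0.15.

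Yeats2_auxin was compared with the same 2 control libraries, so the comparisons are not independent. In it, 1 of 55 members was called, Zfp986, beside 0.445% of all tested genes, and since Zfp986 chose the set nothing is read from this count. Of the other 54, edgeR and DESeq2 called 0 and 10 had an unadjusted P under 0.05, beside 14.6% of all tested genes. The log2 FC was negative for 44 members and positive for 11, with a median of -0.21 beside -0.0081 for all tested genes. The 3 Yeats2_auxin libraries lay below both controls for 28 members, 50.9%, against 21.0% of all tested genes, and above both for 2, 3.64%, against 19.3%. The 284 other tested genes named Zfp with a number had medians of -0.069 in Zzz3_auxin and -0.068 in Yeats2_auxin.

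**Figure D4:**
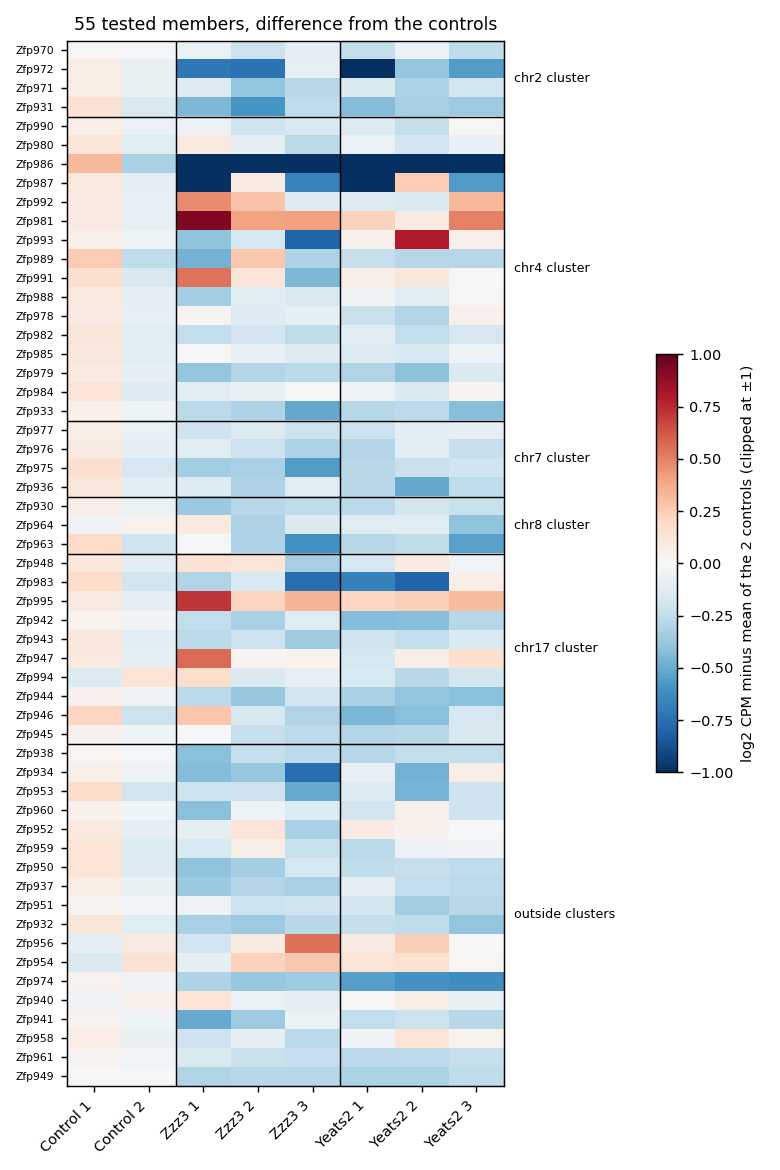
Difference of each library from the mean of the 2 controls (colour, log2 CPM, clipped at 1 in each direction) for the 55 tested members, grouped by chromosome cluster. Most rows are pale blue in most auxin libraries, Zfp986 is dark blue in all of them, and Zfp981 and Zfp995 are red in all of them.

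Base composition moved with this shift. The members are GC-poor, with a median of 38.51% GC over tested members (33.21 to 53.95%) where all tested genes had 49.05%, and 39 of 55 were under 40%. The 1439 tested genes under 40% GC had a median log2 FC of -0.26 in Zzz3_auxin and -0.23 in Yeats2_auxin, and the 39 members under 40% GC had -0.21 in each. The 16 members at 40% GC or more had -0.18 and -0.22, with 14 and 12 of them negative, where all 16071 tested genes in that range had 0.037 and 0.014. These sets were not matched for GC, since the members end at 53.95% and mostly lie near 40%, while all tested genes reach 78.34%. Removing from each library its trend over GC content and exon length took the median of the members to 0.032 in Zzz3_auxin and -0.013 in Yeats2_auxin, with 32 and 25 members positive. For the 16 members at 40% GC or more it gave 0.012 and -0.056. The correction also removes any effect of the depletion that runs with GC content, and the 2 cannot be told apart. Control 1 was the library with the highest level of GC-poor genes, and without it the median of the members was -0.13 in Zzz3_auxin and -0.11 in Yeats2_auxin. Without Control 1 and Zzz3_auxin 3 it was -0.10 in each. The log2 FC of Zfp986 was -3.59 and -2.51 after the correction.

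**Figure D5:**
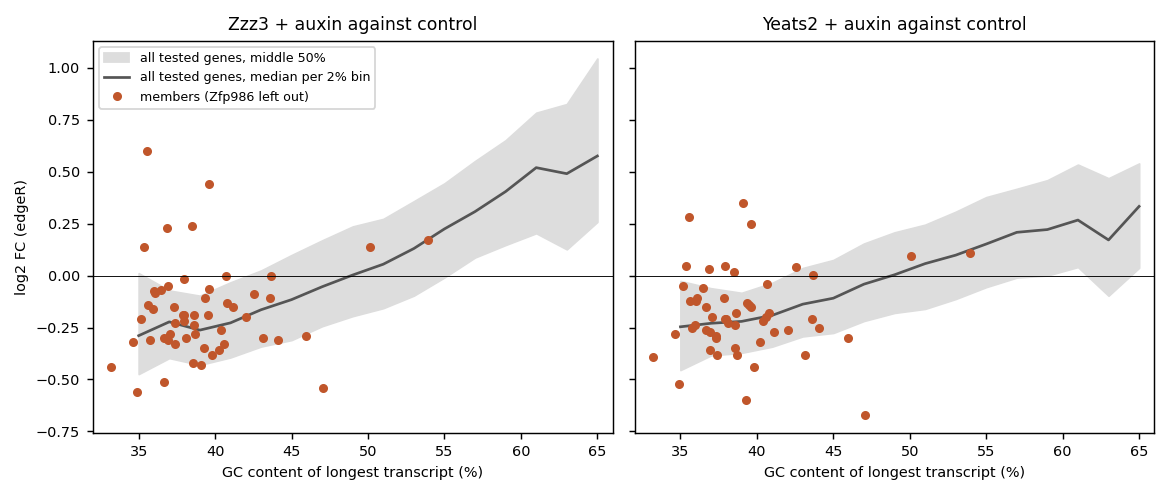
log2 FC against the control (y axis, edgeR) by GC content of the longest transcript (x axis, percent) for Zzz3_auxin (left) and Yeats2_auxin (right). Points are the 54 tested members other than Zfp986, the line is the median of all tested genes in bins of 2% GC and the band holds their middle 50%. Members lie around the line, whose left end is below 0 as their median is (-0.20 and -0.21).

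By cluster, no group of neighbours stood out with a common large change. The median log2 FC in Zzz3_auxin and Yeats2_auxin was -0.35 and -0.30 for the 4 tested members of chromosome 2, -0.30 and -0.23 for chromosome 8, -0.20 and -0.23 for chromosome 7, -0.14 and -0.12 for chromosome 4 and -0.10 and -0.23 for chromosome 17. Members outside a cluster (18 tested) had -0.25 and -0.23. All 4 tested members of chromosome 2 and all 4 of chromosome 7 were below both controls in every library of both depletions, a pattern that 18.9% and 21.0% of all tested genes and 39.0% and 40.9% of those under 40% GC had in Zzz3_auxin and Yeats2_auxin. The other protein-coding genes tested inside those intervals had medians of -0.22 and -0.23 on chromosome 2 (13 genes) and of -0.28 and -0.22 on chromosome 7 (2 genes). After the GC and length correction the direction turned to positive for chromosome 4 (0.14 and 0.13) and, in Zzz3_auxin, for chromosomes 17 (0.14) and 7 (0.058). Chromosomes 2 and 8 stayed negative in both depletions (-0.061 and -0.056, -0.056 and -0.096). The summed level of the 16 chromosome 4 members was 1990 ± 175 CPM in the control (SD, n = 2), 1840 ± 68.3 in Zzz3_auxin (SD, n = 3) and 1820 ± 141 in Yeats2_auxin (SD, n = 3). The 5 other protein-coding genes tested inside the chromosome 4 interval, which Zfp986 shares, had median log2 FC of 0.037 and -0.0077, and none was called.

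A few members had a log2 FC opposite in sign to that of most. Zfp981, a KRAB zinc finger gene of the chromosome 4 cluster with 12.2% of its windows shared, was 99.9 and 88.8 CPM in the control, 179, 125 and 125 in Zzz3_auxin and 110, 100 and 133 in Yeats2_auxin. All 6 auxin libraries were above both controls. The log2 FC was 0.60 in Zzz3_auxin (SE 0.18, edgeR adjusted P = 0.105) and 0.28 in Yeats2_auxin (SE 0.18, edgeR adjusted P = 0.489). In Zzz3_auxin it passed the threshold in DESeq2 (adjusted P = 0.0362) and in edgeR after the GC and length correction (log2 FC 0.89, adjusted P = 0.0359). After that correction 116 of 17532 tested genes were called higher and 61 lower in Zzz3_auxin. Zfp995, in the chromosome 17 cluster, was 19.2 and 16.9 CPM in the control, 29.7, 21.1 and 22.8 in Zzz3_auxin and 20.9, 21.3 and 22.4 in Yeats2_auxin. It too was above both controls in all 6 libraries, with values of 0.44 (SE 0.17) and 0.25 (SE 0.17) on the log2 scale and an edgeR adjusted P of 0.167 and 0.509. Zfp992 and Zfp947 had 0.23 and 0.24 in Zzz3_auxin with overlapping groups, and 0.030 and 0.018 in Yeats2_auxin.

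At the lower end, all members other than Zfp986 had a log2 FC above -0.70, among them Zfp987, whose values are given above. Zfp972, a short chromosome 2 gene with a 127-base exon and no match to the finger pattern, was 2.32 and 2.09 CPM in the control, 1.3, 1.28 and 2.07 in Zzz3_auxin and 1.01, 1.66 and 1.46 in Yeats2_auxin. Both depletions lay below both controls, and its log2 FC was -0.54 (SE 0.31) and -0.67 (SE 0.31), with edgeR adjusted P of 0.346 and 0.345. Zfp974, the member with the most fingers (21), was 7.89 and 7.53 CPM in the control, 6.22, 5.9 and 6.02 in Zzz3_auxin and 5.22, 5.03 and 4.99 in Yeats2_auxin. No library of a group overlapped with another group. Its log2 FC was -0.35 (SE 0.17) and -0.60 (SE 0.17), and the edgeR adjusted P was 0.264 and 0.156. Zfp934 (-0.51, SE 0.20) and Zfp931 (-0.44, SE 0.15) in Zzz3_auxin and Zfp983 (-0.44, SE 0.32) in Yeats2_auxin completed the 5 lowest of each comparison, and none was called. Abundant members had smaller intervals. Zfp979, at 449 and 397 CPM in the control, 323, 345 and 350 in Zzz3_auxin and 343, 318 and 382 in Yeats2_auxin, was below both controls in all 6 libraries. Its log2 FC was -0.32 (95% interval -0.55 to -0.086) and -0.28 (-0.51 to -0.052) before, and -0.035 and -0.032 after, the GC and length correction. Zfp936 was 299 and 255 CPM in the control, 252, 224 and 254 in Zzz3_auxin and 227, 194 and 231 in Yeats2_auxin (log2 FC -0.19, SE 0.13, and -0.35, SE 0.13).

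The depletions were compared with each other without the control. edgeR called 0 of 55 members and DESeq2 called 0, beside 0.0% of all tested genes called by edgeR. An unadjusted P under 0.05 was found for 1 member and for 6.25% of all tested genes. The log2 FC of Yeats2_auxin against Zzz3_auxin was positive for 27 members and negative for 28 (median -0.0045), and its median SE was 0.13. Yeats2_auxin libraries were all above Zzz3_auxin libraries for 5 members, 9.09%, against 5.25% of all tested genes, and all below for 3, 5.45%, against 5.82%. Without Zfp986 they were all above for 4 of 54 (7.41%) and all below for 3 (5.56%). Zfp986 had the largest value, 1.13 (SE 0.57), on 18 and 7 reads. Zfp993 followed with 0.77 (SE 0.25, edgeR adjusted P = 0.779), from 3.99, 4.69 and 3.01 CPM in Zzz3_auxin and 5.45, 9.23 and 5.5 CPM in Yeats2_auxin, and 71.9% of its windows were shared. Without Yeats2_auxin 2 it was 0.48. Zfp934 (0.36, SE 0.18), Zfp958 (0.23, SE 0.11) and Zfp975 (0.18, SE 0.12) came next. Zfp981 (-0.32, SE 0.16), Zfp946 (-0.31, SE 0.19), Zfp974 (-0.25, SE 0.16), Zfp947 (-0.22, SE 0.18) and Zfp992 (-0.20, SE 0.17) were at the other end. Without Zzz3_auxin 1 the values were -0.13 for Zfp981, -0.12 for Zfp946, -0.012 for Zfp947 and -0.07 for Zfp992.

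Genes for the cofactors of KRAB proteins were all expressed. Of 24 such genes, edgeR called 0 in either comparison with the control, beside 0.753% and 0.445% of all tested genes, with 7 in Zzz3_auxin and 2 in Yeats2_auxin at an unadjusted P under 0.05, beside 21.7% and 14.6%. Their median log2 FC was -0.073 and -0.064, with 9 and 10 of 24 positive. Trim28, the corepressor that KRAB domains bind, had a mean of 1710 ± 479 CPM in the control (SD, n = 2), 2490 ± 296 in Zzz3_auxin and 2380 ± 88.3 in Yeats2_auxin (SD, n = 3 each). Its log2 FC was 0.55 in Zzz3_auxin and 0.48 in Yeats2_auxin (SE 0.17 in each, edgeR adjusted P = 0.109 and 0.223). Setdb1, the H3K9 methyltransferase, had 0.11 (SE 0.11) and 0.016 (SE 0.11). The log2 FC was negative for 15 cofactor genes in Zzz3_auxin and 14 in Yeats2_auxin. Among the 15 were Mphosph8 (-0.49, SE 0.19, edgeR adjusted P = 0.17) and Smarcad1 (-0.35, SE 0.11, edgeR adjusted P = 0.116). DESeq2 called Trim28 (adjusted P = 0.0403) and Uhrf1 (0.0253) as higher in Zzz3_auxin and Uhrf1 (0.00267) as higher in Yeats2_auxin. The share of all tested genes that DESeq2 called was not counted, so these calls have no background beside them. For Uhrf1, which guides DNA methylation to replicated DNA, edgeR gave 0.46 and 0.60 (SE 0.13 in each, edgeR adjusted P = 0.0882 and 0.0738).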

How the data were processed

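Total RNA was ribodepleted and made into stranded libraries per the protocol, whereas the molecule label gives polyA RNA. According to labels and methods, the authors trimmed adaptors, removed rRNA reads, aligned to mm10 with STAR (version 2.5.3a) and made the deposited counts per Ensembl gene with HTSeq (version 0.6.1p1), keeping uniquely aligned, unambiguous reads. The strand option is not given in the sources used here, so a member that overlaps an antisense gene (9 of 63) may hold its reads. Counts were tested with edgeR (version 4.0.16, quasi-likelihood, TMM scaling, filterByExpr, all 8 libraries in 1 fit, Benjamini-Hochberg adjustment over 17532 genes, calls at an adjusted P under 0.05). SE is the absolute log2 FC divided by the square root of F, and intervals of a log2 FC run 1.96 SE to each side. That is a normal quantile, so with 8 libraries these intervals are narrower than 95% intervals of the quasi-likelihood test. DESeq2 (version 1.42.0) was an alternative. CPM are TMM-scaled. Symbols, GC content and exons came from GENCODE vM21 (GRCm38), which matched 55141 of 55401 identifiers. The paper counted reads on another Ensembl release, so exon lengths, overlaps, shared windows and gene models may differ from those counted. The fit was tested on simulated data. Named members were Zfp986, called members, the 5 highest and 5 lowest log2 FC per comparison, the 5 highest and 5 lowest levels per kb, and the top level of each cluster. Zfp984, Zfp988, Zfp989, untested members and the cofactor genes Mphosph8 and Smarcad1 were named after their values were seen. Members, lists and cofactor genes were chosen with earlier results of these data known. Whether replicates were separate cultures is not stated, so P values measure the spread between these libraries. Alternatives were other scaling and filters, a GC and length correction (lowess span 0.3), a replicate block and leaving out libraries.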

Additional observations from a re-analysis of the deposited data

Results flagged for a closer look

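Zfp993, of the chromosome 4 cluster, lay below the control mean in all 3 Zzz3_auxin libraries and above it in all 3 Yeats2_auxin libraries, and its log2 FC of Yeats2_auxin against Zzz3_auxin was 0.77 (SE 0.25), with a range of 0.48 to 0.92 when 1 library was left out. The lowest of these was without Yeats2_auxin 2, the highest library at 9.23 CPM, and without it the log2 FC of Yeats2_auxin against Control went from 0.35 to 0.048. The direct test did not pass the threshold (edgeR adjusted P = 0.779, DESeq2 adjusted P = 1.0), and 71.9% of the 100-base windows of the gene also occurred in other genes. Groups of 2 and 3 libraries were too small for a search for single outlying libraries.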

How the results depend on the processing

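Of 602 recomputed values, 566 kept their direction and side of the threshold. A count of called genes was taken as kept when the number was the same, whichever genes were called. The median log2 FC of the members moved by more than the spread between libraries only with the GC and length correction, to 0.032 in Zzz3_auxin, -0.013 in Yeats2_auxin and -0.035 between the depletions, and lay between -0.29 and -0.13, -0.28 and -0.11, and -0.03 and 0.0084 with 1 library left out, and was -0.10 in both comparisons with the control without Control 1 and Zzz3_auxin 3. Members called in Zzz3_auxin were 2 with no filter or with the correction (Zfp986 and Zfp981), and 0 with a mean of at least 1 CPM, which drops Zfp986, with only the compared groups, or with Control 1 and Zzz3_auxin 3 both left out. DESeq2 also called 1 member in Zzz3_auxin, but this was Zfp981 and not Zfp986. In Yeats2_auxin the members called were 0 with DESeq2 (Zfp986 has no adjusted P there), at least 1 CPM, the replicate block, or both libraries left out. With 1 library left out the count was 0 to 1 in each, and it was 0 in both comparisons without either control. Cofactor genes called were 2 (DESeq2) and 3 (no filter) in Zzz3_auxin, and 1 (DESeq2, compared groups only, correction) and 2 (no filter) in Yeats2_auxin, 0 to 1 with 1 library left out. With the correction, 116 of 17532 tested genes were called higher and 61 lower in Zzz3_auxin, and 89 and 43 in Yeats2_auxin. For the other alternatives the share of all tested genes called was not counted, so those counts have no background beside them. Zfp956 turned negative in Zzz3_auxin (-0.034 to 0.34 with 1 library left out, -0.13 without Control 1 and Zzz3_auxin 3) and in Yeats2_auxin after the correction (-0.0015). Zfp954 in Yeats2_auxin ran from -0.043 to 0.25, and was -0.028 without both libraries. The cause of these moves was not tested. Apart from the Yeats2_auxin count, the replicate block changed no call. Same-numbered Zzz3_auxin and Yeats2_auxin libraries deviated from their group means with r of 0.021, 0.0455 and -0.0722. The 2 controls deviate as mirror images, so whether their numbers pair with those of the auxin libraries cannot be judged. Other cluster gaps (500 kb, 2 Mb) split the chromosome 2 cluster or left all as they were. With windows of 50 bases, a median of 20.0% was shared. RefSeq symbols gave 62 members, 60 of them shared, and Zfp969, Zfp986 and Zfp989 were members by GENCODE only. At 2 control libraries and few unique reads, the depth limits Zfp986, Zfp987 and most chromosome 2 copies.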
